A study of Homo sapiens with 6 samples.

Results

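Integrins are cell surface receptors made of an alpha and a beta subunit that bind matrix proteins and receptors on other cells. The genes described here encode 10 subunits used by leukocytes, found as the rows of the deposited table whose symbol equals ITGAM, ITGAX, ITGAL, ITGB2, ITGA4, ITGA5, ITGB1, ITGB7, ITGAV or ITGAE. All 10 were present among the 17911 genes of the table. The RNA of 6 libraries came from HL-60, an established human leukaemia cell line of promyelocyte-like cells. The 3 amiodarone libraries came from cells exposed to 10 uM amiodarone, an antiarrhythmic drug, for 24 h. The other 3 are labelled control, and the labels do not say whether these cells received a vehicle or whether the libraries came from separate cultures. The error behind each p-value is thus the spread among libraries of a group, and part or all of it may be technical.

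An integrin leaves the endoplasmic reticulum as an alpha and beta pair, so the surface amount of a receptor depends on both transcripts. ITGB2 (CD18) is the beta subunit of the leukocyte-specific family and pairs with ITGAL (CD11a, the receptor LFA-1), ITGAM (CD11b, the receptor Mac-1) or ITGAX (CD11c). ITGB1 pairs with many alpha subunits, among them ITGA4 and the fibronectin receptor subunit ITGA5, while ITGB7 pairs with ITGA4 or ITGAE. In resting leukocytes most integrins are held in a bent, weakly binding form. Talin and kindlin bind the beta subunit tail to switch them on, and CD11b and CD11c are long-used surface markers of myeloid maturation in HL-60 and similar cells.

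Levels are given as deposited, on a scale that behaves like RPKM (reads per gene length and sequencing depth), so that they can be compared roughly between genes. The depth, judged from steps between low values, was about 16000000 to 18340000 reads or fragments per library. At that depth the counts behind a single library ranged from about 37 for ITGAE to about 13525 for ITGB2. Summed levels of 9 promyelocyte markers were 7538 to 7672 in controls and 3587 to 3702 after amiodarone, with all 9 at a level that could be tested, so the labelled cell type had its defining transcripts. Of these 9 genes 7 were lower after amiodarone, 1 was higher and 1 was not called (median log2 fold change -0.91), and most of the sum was MPO, at 5962 and 2613 in the group means. Summed levels of the 4 megakaryocyte and platelet markers in the table were 2.58 to 2.93 in controls and 1.83 to 2.52 after amiodarone. Most of this was ITGA2B, which was above 1 in all libraries and was called lower, while the other 3 stayed below 1 in all of them. The erythroid gene ALAS2 was also below 1 throughout. The part of these differences in the integrin results was not tested.

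The change was tested with limma on log2(value + 1), and a gene was called when its Benjamini-Hochberg adjusted p over 11445 tested genes was under 0.05. ITGAE was not tested, because the filter asked for 3 libraries with a value of 1 or more. The 9 tested members had values above 1 in all 6 libraries, so none entered through 1 group alone. 8 of these 9 were called, 5 higher and 3 lower after amiodarone. Across all tested genes 78.3% were called, 33.5% higher and 44.8% lower, so a call by itself sets no member apart. Changes of at least 2-fold on that scale were rarer, at 2.55% of tested genes upward and 2.6% downward. ITGAM and ITGAX passed this size upward and ITGA5 passed it downward, the last only narrowly, at -0.96 with scaling by the median of ratios. These shares depend on the pseudocount, since 589 genes (5.15%) were called at 2-fold or more with a pseudocount of 1 and 1129 (9.86%) with 0.1. In bulk RNA, fewer cells of a type and less RNA per cell cannot be told apart.

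**Figure D1:**
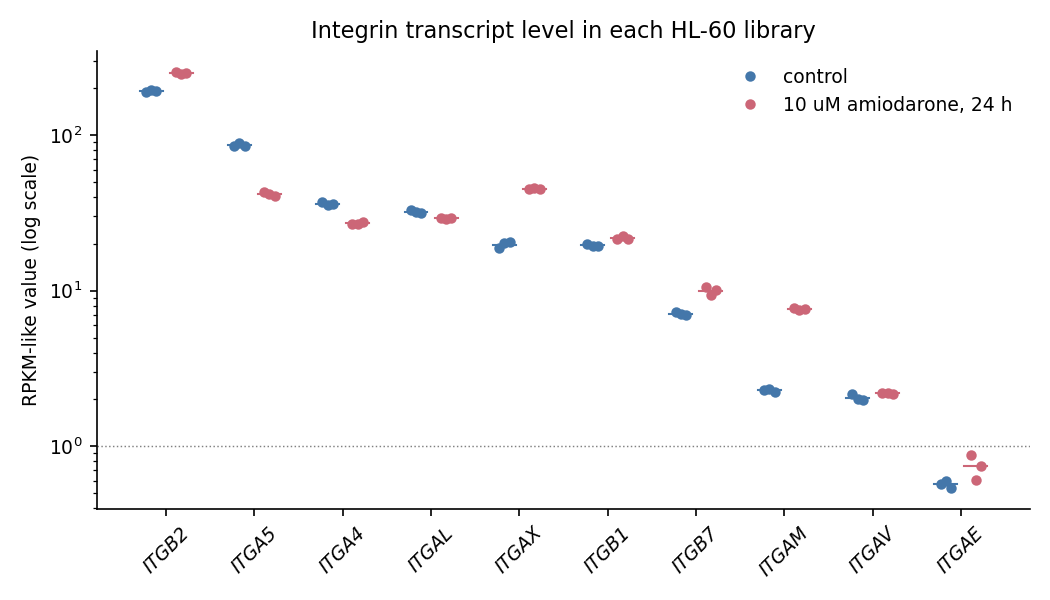
Level of each of the 10 integrin genes (RPKM-like value, log axis) in the 3 control and 3 amiodarone libraries, ordered by control mean. Points are libraries, short lines are group means and the dotted line marks a value of 1. ITGB2 is the highest in all 6 libraries, ITGAX rises past ITGA5 after amiodarone, and ITGAE stays below 1.

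Promoter stretches show what lies before the genes that moved. RefSeq promoter entries (GRCh38.p14) were matched for 7 of the 10 members, and ITGAX, ITGAL and ITGB2 had none. The stretches below belong to the called members with an entry that had the largest changes in each direction, ITGAM and ITGB7 upward and ITGA5 downward. They hold the bases before the RefSeq start that no GENCODE 29 exon covers, 5′ to 3′ on the gene's strand. ITGAM lies at chr16:31259725-31259966 (plus strand), ITGB7 at chr12:53207308-53207501 (minus strand) and ITGA5 at chr12:54419461-54419516 (minus strand). Capitals mark matches to GAGGAA, the core bound by the myeloid factor PU.1, or to GGGCGG, the GC box, on either strand.
ITGAM: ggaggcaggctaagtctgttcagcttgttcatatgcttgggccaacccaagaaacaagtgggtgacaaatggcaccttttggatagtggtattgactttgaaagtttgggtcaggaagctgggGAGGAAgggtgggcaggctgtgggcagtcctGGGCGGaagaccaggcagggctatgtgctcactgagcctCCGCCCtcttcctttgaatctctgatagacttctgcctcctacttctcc
ITGB7: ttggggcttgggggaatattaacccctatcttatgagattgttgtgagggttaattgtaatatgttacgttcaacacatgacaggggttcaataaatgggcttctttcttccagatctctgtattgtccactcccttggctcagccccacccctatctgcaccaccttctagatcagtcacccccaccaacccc
ITGA5: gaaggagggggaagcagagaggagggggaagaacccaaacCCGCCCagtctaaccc
The ITGAM stretch held GAGGAA once and the GC box in 2 places, and the ITGA5 stretch held 1 GC box. The ITGB7 stretch held neither, and none of the 3 stretches held TGANTCA (AP-1), TTGCNNAA (C/EBP) or TATAAA (the TATA box). The stretches cover 242, 194 and 56 of the 250 bases before each start. In the full 250 bases ITGB7 had 1 match to GAGGAA and ITGA5 1 match to TTGCNNAA, while the other counts were as in the stretches. Among the other members with an entry, GAGGAA also lay within 250 bases before a start of ITGAV, ITGB1 and ITGAE, but not of ITGA4. Of these, ITGAV was not called and ITGAE was not tested, so a match was not particular to genes that moved. Over the same 250 bases, 23.6% of 35116 RefSeq promoters hold GAGGAA and 42.6% hold GGGCGG, on either strand. The corresponding shares are 6.6% for TGANTCA, 9.1% for TTGCNNAA and 10.7% for TATAAA. The motifs searched do not overlap one another in these stretches, and a match describes letters and not binding.

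ITGAM and ITGAX transcripts, for the alpha subunits of the phagocyte receptors that take up complement-coated particles, showed the largest increases among the members. ITGAM was measured at 2.31, 2.33 and 2.23 in the controls and at 7.72, 7.54 and 7.62 after amiodarone. Every amiodarone library was well above every control library, and libraries of a group differed little. The mean was 2.29 ± 0.0529 in controls and 7.63 ± 0.0902 after amiodarone (SD, 3 libraries each), a 3.33-fold rise with a log2 fold change of 1.39 ± 0.052 (SE, limma, adjusted p = 1.57e-09). The log2(value + 1) scale understates this change because the control level is low. A total of 104 of the 11445 tested genes (0.909%), ITGAM included, had a log2 fold change as large. The gene lies on chromosome 16 at 31259967 to 31332892 on the plus strand (GENCODE 29, GRCh38), and no other annotated gene shares its exonic bases.

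ITGAX began at a higher level. Its values were 18.75, 20.24 and 20.46 in controls and 45.29, 45.47 and 45.14 after amiodarone, with no overlap. The mean rose 2.29-fold, from 19.8 ± 0.93 to 45.3 ± 0.165, with a log2 fold change of 1.15 ± 0.038 (SE, limma, adjusted p = 5.32e-10). ITGAX follows ITGAM on the same strand of chromosome 16, at 31355134 to 31382997. Another alpha gene of the ITGB2 family, ITGAD (CD11d), was near the limit of measurement. Its values were 0.5, 0.48 and 0.33 in controls and 0.89, 0.93 and 1.3 after amiodarone, and it was not tested. Of the 50-base words in annotated ITGAX transcripts, 1.52% also occur in another gene, mainly ITGAD, and for ITGAM the share was 0.36%.

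ITGAL, the alpha subunit of LFA-1, the receptor by which leukocytes bind ICAM proteins on other cells, changed little and in the other direction. Controls had 32.86, 31.85 and 31.6, and amiodarone libraries 29.2, 29.1 and 29.42. The groups were apart but close, and the fall was by 0.13 ± 0.031 on the log2 scale (SE, limma, adjusted p = 0.00267). A fall at least this large was seen in 43.9% of tested genes. The call ended with scaling by the median of ratios (log2 fold change -0.06, limma, adjusted p = 0.0865). Antisense genes cover 9.6% of the ITGAL exonic bases.

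ITGB2, the beta subunit shared by these receptors, was the most abundant member in both groups. It was at 188.6, 195.67 and 191.88 in controls and at 256.38, 247.69 and 252.73 after amiodarone. The amiodarone values lay wholly above the controls, and the mean rose 1.31-fold, from 192.0 ± 3.54 to 252.3 ± 4.36. Its log2 fold change was 0.39 ± 0.024 (SE, limma, adjusted p = 7.71e-08), and 16.3% of tested genes rose as far. ITGB2 took 48.2% ± 0.37 of the summed values of the 10 members in controls and 57.6% ± 0.34 after amiodarone (exact permutation test, two-sided p = 0.1, the smallest that 3 against 3 libraries allow).

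The make-up of the ITGB2 partners did not overlap between the groups. Of the summed values of ITGAL, ITGAM and ITGAX, ITGAL took 60.9%, 58.5% and 58.2% in the 3 controls and 35.5%, 35.4% and 35.8% after amiodarone. ITGAX took 34.8%, 37.2% and 37.7% in controls and 55.1%, 55.4% and 54.9% after amiodarone. ITGAL was the leading partner transcript in each control library and ITGAX in each amiodarone library. ITGAM took 4.22% ± 0.1 in controls and 9.28% ± 0.1 after amiodarone, and remained the least abundant of these alpha transcripts in all libraries. The summed level of the 3 partners was 54.2 ± 0.26 in controls and 82.2 ± 0.051 after amiodarone. Set against ITGB2, this sum was 0.282 ± 0.0039 and 0.326 ± 0.0054. Each of these quantities had an exact two-sided permutation p of 0.1.

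**Figure D2:**
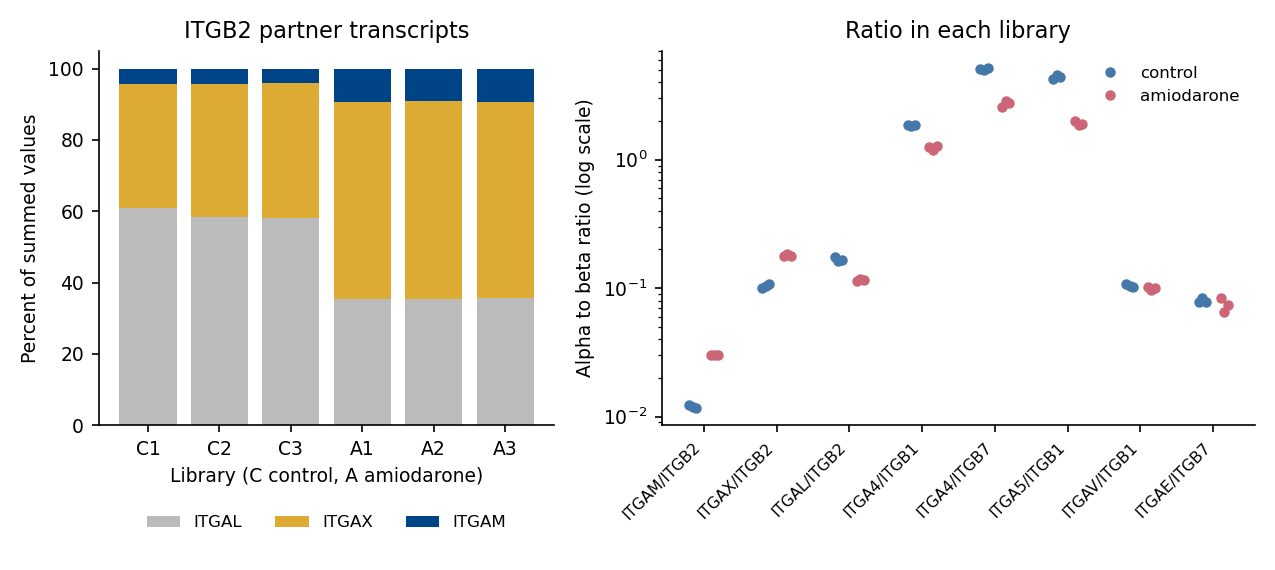
Left, share of ITGAL, ITGAX and ITGAM in their summed RPKM-like values in each library (percent, stacked to 100). Right, ratio of each alpha transcript to a known beta partner in each library (log axis), where points are libraries. ITGAX takes 54.9% to 55.4% in the amiodarone libraries, and the ratios of ITGAM and ITGAX to ITGB2 are higher there while those of ITGAL, ITGA4 and ITGA5 to their partners are lower.

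ITGA5, the alpha subunit of the main fibronectin receptor, showed the largest decrease among the members. Controls had 85.3, 89.17 and 85.62, and the amiodarone libraries 42.81, 41.74 and 40.93. No amiodarone library came near a control. The mean was 86.7 ± 2.15 in controls and 41.8 ± 0.943 after amiodarone, a level in controls 2.07-fold that after amiodarone. The log2 fold change was -1.03 ± 0.03 (SE, limma, adjusted p = 2.4e-10), and 2.26% of tested genes fell as far. ITGA5 lies on the minus strand of chromosome 12 at 54395261 to 54419460. It was second in level after ITGB2 in controls and came behind ITGAX after amiodarone.

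ITGA4, which pairs with ITGB1 or ITGB7 and binds VCAM1 and fibronectin, also fell. Its values were 37.12, 35.54 and 36.26 in controls and 26.96, 26.83 and 27.72 after amiodarone. The groups did not overlap, and the log2 fold change was -0.41 ± 0.032 (SE, limma, adjusted p = 5.9e-07). The ratio of ITGA5 to ITGA4 was 2.39 ± 0.11 in controls and 1.54 ± 0.057 after amiodarone (exact permutation test, two-sided p = 0.1).

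ITGB1, the broadly expressed beta subunit, was at 19.94, 19.39 and 19.41 in controls and at 21.51, 22.58 and 21.48 after amiodarone. It was called slightly higher, with a log2 fold change of 0.15 ± 0.036 (SE, limma, adjusted p = 0.00269). Scaling to equal sums ended this call (log2 fold change 0.06, limma, adjusted p = 0.139). Of its 50-base transcript words 8.86% occur in another annotated gene, mainly AC022149.1, and how reads of such words were counted is not stated. The ITGB1 transcript was less abundant than the sum of its alpha partners. Summed ITGA4, ITGA5 and ITGAV stood at 6.39 ± 0.14 times ITGB1 in controls and at 3.26 ± 0.11 times after amiodarone.

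ITGAV, which joins several beta subunits to bind vitronectin and latent TGF-beta, was low and was not called. Controls had 2.16, 2.0 and 1.98 and amiodarone libraries 2.2, 2.2 and 2.18. The groups did not overlap, by a narrow margin. The log2 fold change of 0.07 had a 95% interval from -0.07 to 0.21 (limma, adjusted p = 0.329). Beta partners of ITGAV other than ITGB1 were low, with means under 0.5 for ITGB3, ITGB5, ITGB6 and ITGB8 in both groups.

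ITGB7, a lymphocyte beta subunit for homing to gut, and ITGAE (CD103), its partner for binding E-cadherin, were at lower levels. ITGB7 was at 7.3, 7.1 and 6.97 in controls and at 10.49, 9.43 and 10.08 after amiodarone, with no overlap. It rose 1.4-fold, with a log2 fold change of 0.44 ± 0.05 (SE, limma, adjusted p = 1.19e-05). ZNF740 lies on the opposite strand over 42.1% of the ITGB7 exonic bases, and whether counting used strand is not given in the sources used here. ZNF740 itself moved the other way, from 11.9 ± 0.0289 to 10.8 ± 0.194. ITGAE was at 0.57, 0.6 and 0.54 in controls and at 0.88, 0.61 and 0.75 after amiodarone, where the closest libraries differed by 0.01. With no filter on low values ITGAE changed by 0.15 on the log2 scale and missed the threshold (limma, adjusted p = 0.0738).

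**Figure D3:**
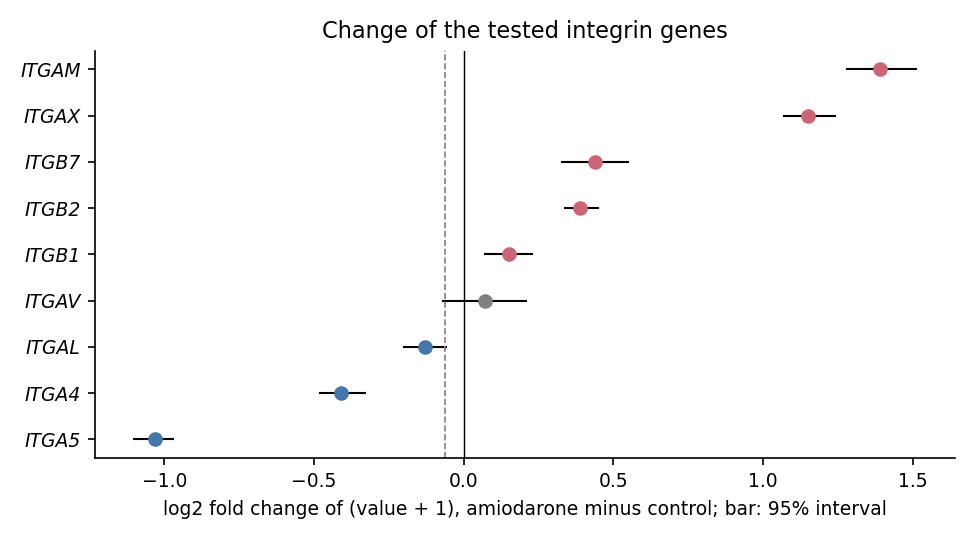
Log2 fold change of value + 1, amiodarone minus control, for the 9 tested integrin genes, with 95% intervals from limma. Red points were called higher, blue points lower and the grey point was not called, and the dashed line is the median of all tested genes (-0.061). ITGAM and ITGAX lie above 1, ITGA5 lies below -1 and the interval of ITGAV includes 0.

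In order of level, controls ran ITGB2, ITGA5, ITGA4, ITGAL, ITGAX, ITGB1, ITGB7, ITGAM, ITGAV and ITGAE. ITGAX and ITGB1 could not be separated there, since their library ranges overlapped, and all other neighbours had separate ranges. After amiodarone the order was ITGB2, ITGAX, ITGA5, ITGAL, ITGA4, ITGB1, ITGB7, ITGAM, ITGAV and ITGAE, with separate ranges throughout. Separate ranges reflect the spread among libraries and not error in the gene lengths behind the values, which are not stated. The order of close neighbours is therefore uncertain, as for ITGAX and ITGA5 (45.3 and 41.83) or ITGAL and ITGA4 (29.24 and 27.17) after amiodarone. ITGAX had moved from the fifth place to the second. In the tested members the groups did not overlap in 9 of 9 genes, where 79.3% of all tested genes had no overlap.

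Ratios of alpha to beta transcripts were compared in 8 known pairs. The ITGAM to ITGB2 ratio was 0.0119 ± 0.00031 in controls and 0.0302 ± 0.00018 after amiodarone, and that of ITGAX to ITGB2 was 0.103 ± 0.0036 and 0.18 ± 0.0036. The ITGAL to ITGB2 ratio was 0.167 ± 0.0061 in controls and 0.116 ± 0.0018 after amiodarone. These 3 pairs share a beta subunit whose transcript rose, so a partner that rose less than ITGB2 has a lower ratio. ITGA5 to ITGB1 went from 4.43 ± 0.16 to 1.91 ± 0.071, ITGA4 to ITGB1 from 1.85 ± 0.019 to 1.24 ± 0.052 and ITGA4 to ITGB7 from 5.1 ± 0.099 to 2.72 ± 0.14. In each of these 6 pairs the groups did not overlap, with an exact two-sided permutation p of 0.1, adjusted over the 8 pairs to 0.133. No pair could pass 0.05 in this design. For ITGAV to ITGB1 (0.104 ± 0.0034 and 0.1 ± 0.0026) and ITGAE to ITGB7 (0.08 ± 0.0039 and 0.0743 ± 0.0096) the groups overlapped.

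Other integrin subunits were mostly low. All 16 are in the table, 11 were below 1 in every library, and 4 could be tested. ITGA6, a laminin receptor subunit, was at 7.03, 7.51 and 7.26 in controls and fell to 4.36, 4.24 and 4.13 (log2 fold change -0.66, limma, adjusted p = 4.93e-07). The platelet subunit ITGA2B was lower too (2.12 ± 0.17 to 1.51 ± 0.24), while ITGB4 (1.65 ± 0.0889 to 2.3 ± 0.18) and ITGA3 (0.9 ± 0.121 to 1.28 ± 0.227) were called higher. ITGA3 was at 1.01, 0.77 and 0.92 in controls and met the filter only with the amiodarone libraries, so its call tells nothing. The call of ITGA3 ended with scaling to equal sums and without control replicate 2 or amiodarone replicate 2, where its adjusted p was 0.0504, 0.0871 and 0.0992 (limma).

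Among 20 ligand genes in the table, 10 were tested, 5 rose, 3 fell and 2 missed the threshold. Their median was 0.16 (log2) beside -0.061 over all tested genes, of which 33.5% were higher and 44.8% lower. The ITGAL and ITGAM ligand ICAM1 was at 20.68, 19.3 and 21.36 in controls and at 52.12, 54.2 and 52.43 after amiodarone, a 2.59-fold rise (limma, adjusted p = 2.78e-10). SPP1, which encodes osteopontin, a secreted ligand of ITGAV and ITGA4 receptors, rose 3.58-fold from 6.93 ± 0.396 to 24.8 ± 0.421. C3, whose fragment iC3b is bound by ITGAM and ITGAX receptors, rose 1.41-fold, ICAM3 1.17-fold and JAM2 2.01-fold. JAM2 was low, at 0.99, 1.29 and 1.34 in controls, and met the filter only with the amiodarone libraries, so its call tells nothing. TGFB1, whose latent form is bound by ITGAV receptors, was lower (142.2 ± 1.55 to 112.8 ± 4.98), as were MFGE8 and ICAM4. Antisense genes lie over 71.2% of the ICAM3, 100% of the ICAM4 and 23.6% of the ICAM1 exonic bases. VCAM1 and FN1, ligands of ITGA4 and ITGA5, stayed below 1 in means of both groups.

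Genes that switch integrins on moved in both directions. Of 16 activator genes 12 were tested, 9 rose, 2 fell and 1 missed the threshold (median 0.17), where 33.5% of all tested genes were higher and 44.8% lower. With scaling to equal sums 6 were higher and 3 lower. Kindlin-3, FERMT3, the blood cell kindlin that binds the beta tail, was at 105.17, 110.88 and 108.51 in controls and at 158.89, 151.03 and 158.54 after amiodarone. That was a 1.44-fold rise with no overlap (limma, adjusted p = 3.71e-08). The adaptors SKAP2 and FYB1, which link Rap signalling to integrins, rose 1.48-fold and 1.51-fold. Talin, TLN1, which also binds the beta tail, fell (52.9 ± 0.87 to 43.6 ± 0.855, limma, adjusted p = 6.67e-06). So did RASGRP2, the exchange factor that loads Rap1 (54.3 ± 1.54 to 40 ± 1.09). Genes for both tail-binding proteins thus moved in opposite directions.

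Of 12 inhibitor genes 11 were tested, 3 rose, 5 fell and 3 missed the threshold (median -0.12). The shares over all tested genes were 33.5% higher and 44.8% lower. FLNA, a filamin that competes with talin for beta tails, fell from 223.5 ± 2.32 to 184.2 ± 2.87. The beta-tail binder ITGB1BP1 (32.9 ± 1.02 to 26 ± 1.8) and the alpha-tail binder SHARPIN (19.5 ± 0.783 to 16.1 ± 0.553) were also among those that fell, as was RASA3, which encodes a GTPase-activating protein. ASAP2 lies opposite ITGB1BP1 over 33.1% of its exonic bases. DOK2, an adaptor with a phosphotyrosine-binding domain, rose from 30.3 ± 1.44 to 39.2 ± 1.22, and RAP1GAP and SIPA1L1 were called higher as well. SIPA1L1 was at 1.07, 0.95 and 0.78 in controls and met the filter only with the amiodarone libraries, so its call tells nothing. The call of SIPA1L1 ended with scaling to equal sums and without control replicate 3 or amiodarone replicate 3 (limma, adjusted p = 0.0579, 0.102 and 0.0692), and that of RASA3 with the median of ratios (adjusted p = 0.101). The number that rose was 5 with scaling by the median of ratios and 1 at a minimum value of 5.

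Downstream of bound integrins, the Src family kinase genes FGR and LYN rose. FGR was at 13.86, 12.93 and 12.83 in controls and at 33.64, 32.69 and 32.88 after amiodarone, a 2.5-fold rise with no overlap. LYN rose 1.92-fold (20.4 ± 0.621 to 39.2 ± 0.607). The largest rise in this list was 2.65-fold for LIMS1, encoding PINCH, a partner of the integrin-linked kinase ILK (21.2 ± 0.674 to 56.2 ± 0.565). These 3 genes had limma adjusted p-values of 1.69e-09 or less. In all, 25 of 31 genes were tested, 12 rose, 8 fell and 5 missed the threshold (median 0.11). Across all tested genes 33.5% were higher and 44.8% lower. Of the 12 that rose, SRC (0.687 to 1.78 in group means) passed the filter through the amiodarone libraries alone. Its call thus tells nothing. Among those that fell were ACTN1 (49.3 ± 0.48 to 32 ± 1.5), ACTN4, VCL, PXN and PARVB, named after their values were seen. Other actin-linked genes of the list, ZYX (372.6 ± 9.69 to 400.2 ± 20.6) and VASP (117.1 ± 0.0624 to 134.7 ± 4.36), also named afterwards, were called higher. The kinase gene SYK, chosen in the same way, fell from 41.7 ± 1.34 to 31.4 ± 1.18.

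Membrane proteins that sit beside integrins were split, with 6 of 10 tested genes higher, 4 lower and a median of 0.34. For all tested genes the shares were 33.5% higher and 44.8% lower. PLAUR, the urokinase receptor, which associates with ITGAM and ITGB1 receptors, was at 76.99, 78.21 and 78.45 in controls. It was at 215.84, 211.1 and 202.02 after amiodarone, a 2.69-fold rise (limma, adjusted p = 1.63e-11). SLC3A2 (CD98), which binds beta tails, rose 2.66-fold and the tetraspanin CD82 1.63-fold. The tetraspanin CD81 fell from 177.3 ± 3.76 to 125.9 ± 4, and CD151, CD47 and BSG fell too.

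**Figure D4:**
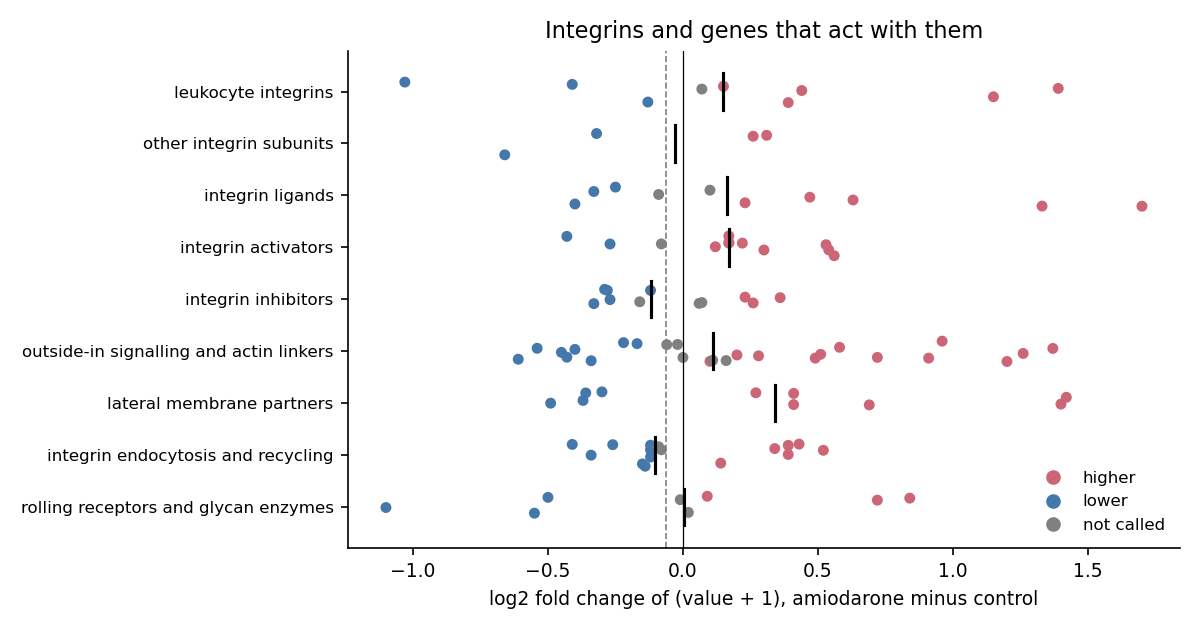
Log2 fold change of value + 1, amiodarone minus control, for each tested gene of the integrin family and of 8 lists of genes that act with it. Points are genes (red called higher, blue lower, grey not called), short vertical lines are list medians and the dashed line is the median of all tested genes. ITGAM, ITGAX and ITGA5 lie at the ends of the top row, and every list holds called genes on both sides of 0.

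Integrin endocytosis and recycling genes showed small changes, with 6 of 16 tested genes higher, 8 lower and a median of -0.1. Over all tested genes the shares were 33.5% higher and 44.8% lower. RAB5A, an early endosome GTPase, rose 1.46-fold and ACAP1, an adaptor for recycling of ITGB1, 1.36-fold. SNX17, a sorting nexin that keeps beta subunits from lysosomal breakdown, fell from 87.2 ± 2.46 to 68.7 ± 2.16, and the GTPase gene RAB35 from 28.2 ± 0.875 to 21.1 ± 0.792. The number that fell was 4 with scaling by the median of ratios.

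Rolling on vessel walls, which comes before integrin arrest, depends on selectin ligands and CD44. CD44, a hyaluronan receptor, was at 96.55, 95.14 and 98.33 in controls and at 174.15, 176.62 and 171.91 after amiodarone, a 1.8-fold rise (limma, adjusted p = 2.32e-10). FUT7, the fucosyltransferase that completes selectin ligands, was at 13.19, 13.27 and 12.37 and fell to 5.49, 5.63 and 5.4 (limma, adjusted p = 4.2e-09). Opposite-strand genes cover 39.2% of the FUT7 exonic bases, and same-strand genes share 27.6% of them. The glycan enzymes ST3GAL4 and B4GALT1 fell, GCNT1 and the P-selectin ligand SELPLG rose, and FUT4 and C1GALT1 were not called. SELPLG lost its call under 6 alternatives, among them scaling to equal sums (log2 fold change 0.01, limma, adjusted p = 0.896) and leaving out control replicate 1 or 2 or amiodarone replicate 1 or 2 (adjusted p from 0.0501 to 0.101). The list held 8 tested genes, 3 of them higher and 3 lower, with a median of 0. Among all tested genes 33.5% were higher and 44.8% lower.

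Other markers of myeloid maturation moved in both directions. Of 16 such genes 9 were tested, 6 were higher and 2 lower, where 33.5% of all tested genes were higher and 44.8% lower. The 16 markers summed to 344.4 to 349 in controls and 404.9 to 415.6 after amiodarone. Those called higher, named after their values were seen, were the gelatinase gene MMP9 (20.48 to 37.28 in group means), CD68 (31.89 to 43.24), MNDA (86.76 to 115.4), the lysozyme gene LYZ (102.3 to 123.1), FCN1 (3.94 to 4.57) and FCGR1A (18.74 to 21.3). CD14 and FCGR3B, which define mature monocytes and neutrophils, were below 1 in all group means (CD14 at 0.347 and 0.793, FCGR3B at 0.147 and 0.177). The neutrophil receptor genes CSF3R and CXCR2 were the ones called lower, and LTF, a secondary granule gene, was at 0.13 and 0.0933. CSF1R was not tested but fell without overlap, from 1.26, 0.93 and 1.09 in controls to 0.5, 0.56 and 0.61 after amiodarone. Markers of T and NK cells summed to 130.1 to 135.3 and 180.8 to 189.7, nearly all of it NKG7 (126 and 175.4). Of these 8 markers 4 were tested and 3 were called higher, namely NKG7, CD3G (0.72 to 2.33) and KLRD1 (3.87 to 6.12). CD3G passed the filter through the amiodarone libraries alone, so its call tells nothing. CD3D was not called (1.75 and 1.79), and CD3E was at 0.13 and 0.187. B cell markers summed to 23.51 to 24.03 and 22.36 to 23.68. The part of these marker changes in the integrin results was not tested.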

How the data were processed

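The deposited table gave 1 value per gene and library under headers that state no unit. The deposited values were taken as RPKM from their behaviour, and per the submitters' processing notes the tools included STAR 2.5.3a, fastp 0.23.4 and featureCounts, with the build GRCh38.p12, in no stated role. The annotation, the strand setting and how shared reads were treated are not stated. Values times the longest GENCODE 29 transcript summed to 1.25 to 1.27 times the RPKM total, and 50.9% to 60% of low values lay within 0.15 of a whole read step chosen to raise that share, where chance gives 30%, so the depth is approximate. Values were not rescaled. The whole table was fitted with limma 3.58.1 in R 4.3.3 (eBayes with trend) on log2(value + 1), after a filter of at least 1 in at least 3 libraries that kept 11445 genes. Folds are ratios of group means, given ± SD over 3 libraries per group. The procedure was tested on simulated data in which few genes changed and all of these rose, unlike the data here. Members and gene lists were chosen with earlier results of these data known, so no list is independent evidence. Named genes are the 10 members, up to 4 genes per list with the smallest adjusted p, genes needed to spell out counts of 5 or fewer, and those said to be chosen later; some genes that this rule would name are not reported here. Alternatives covered the pseudocount, the filter, 2 scalings, the variance model, a replicate block and leaving out each library.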

Additional observations from a re-analysis of the deposited data

How the results depend on the processing

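All 8 calls among the members kept their direction and their side of the threshold at a pseudocount of 0.1, with no filter, without the trend and without any 1 library. At a minimum value of 5 this held for the 7 other than ITGAM, which passed that filter through the amiodarone libraries alone, so its call there tells nothing. The 2 exceptions came from scaling: ITGAL was at -0.06 with the median of ratios (limma, adjusted p = 0.0865) and ITGB1 at 0.06 with equal sums (limma, adjusted p = 0.139). These scalings shifted the median of all genes by 0.062 and -0.082. Leaving out 1 library gave 5 members higher and 3 lower each time, with ITGAM between 1.38 and 1.4, ITGAX between 1.12 and 1.18 and ITGA5 between -1.05 and -1.01 on the log2 scale. The number of genes called at 2-fold or more went from 589 to 1129 at a pseudocount of 0.1.

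Some counts in short lists moved. Other integrin subunits called higher numbered 2 in the fit reported, 6 with no filter, 0 at a minimum value of 5, 1 with equal sums and 1 to 2 when 1 library was left out. Those called lower numbered 4 with no filter and 1 at a minimum value of 5. The latter was ITGA6, which passed that filter through the control libraries alone, so its call there tells nothing. Without a filter 8 ligands were higher and 5 lower. Over all genes, no filter gave 4776 higher and 5488 lower of 17910, and a minimum value of 5 gave 2764 and 4177 of 8470. Scaling by the median of ratios gave 4474 higher and 4472 lower of 11445, and equal sums gave 3112 and 5893. Inhibitors called higher numbered 1 at a minimum value of 5, 5 with the median of ratios and 2 to 4 when 1 library was left out, and recycling genes called lower numbered 4 with the median of ratios. The cause was not tested, apart from the number of genes that each filter lets in.

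The replicate numbers of the groups did not pair the libraries: deviations of same-numbered libraries correlated at -0.155, -0.018 and -0.023. With the replicate block 8770 genes were called instead of 8959, with 5 members higher and 3 lower, and no library correlated best with its own number. The subunit ratios were not run with the block. Depth limits ITGAE most, with about 37 to 56 reads per library.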
